A study of Mus musculus with 115 samples.

Results

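The livers described here came from those FCG mice that develop ovaries, and the question was what 3 weeks of estradiol did to their liver RNA. FCG mice are a model in which the type of gonad does not depend on the sex chromosomes. On their C57BL/6J background the Y chromosome lacks Sry, the gene that starts testis formation, which is written XY-, and animals without an Sry transgene form ovaries whatever their sex chromosomes. All of the mice had their gonads removed at 75 days of age and received a Silastic capsule on the same occasion. The capsule held 50 µg of 17beta-estradiol in sesame oil, or adhesive alone in the blank group, so the oil and the hormone cannot be told apart. The livers were taken 3 weeks later and measured on 1-colour Illumina BeadChips. The comparison used the liver arrays titled XX or XY- with estradiol or blank, with 5 arrays in each of the 4 groups. One of these 20 arrays, XY- estradiol replicate 5, was set aside for the reason given below, which left 19 of the 115 samples of the series: 9 with estradiol and 10 with blank. The 20 liver arrays of the testis line, XXSry and XY-Sry mice with estradiol or blank, were set beside these. The labels do not say whether each array came from a different animal, and p-values therefore measure the spread between arrays. That spread was estimated within all 12 liver groups, 59 arrays. They include the testis line and livers of both lines given testosterone in a 5 mM capsule.

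Estradiol acts on the liver through estrogen receptor alpha, encoded by Esr1, and also through the pituitary, since it alters the pattern of growth hormone secretion that sets many sex-biased liver genes. In rodents the hepatocyte makes acute-phase proteins, clotting factors, major urinary proteins and cytochromes P450, and it burns fatty acids under the control of the nuclear receptor PPAR-alpha. Neutrophils and Kupffer cells, the resident macrophages of the liver, contribute their own transcripts to RNA of the whole organ.

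The median raw signal of the 20 arrays lay between 124.4 and 157.5, and 33.4% to 41% of the 25697 probes were detected on each, at a detection p under 0.01. The 11317 probes detected on at least 5 of the 60 liver arrays, for 8422 gene symbols, were tested. Levels are background-corrected, quantile-normalised intensities in log2 units. The set-aside array carried Hsd3b5, a male-predominant liver gene, at 12.21 on the log2 scale, where the other estradiol arrays spanned 4.5 to 7.43, the blank arrays 4.83 to 7.01 and the testosterone arrays of the same line 12.13 to 12.70. Its Cyp2b13 level of 4.98 also fell in the testosterone range of 4.55 to 5.93 and below every other estradiol array. That array was left out of the fit, and with it 17 of the 81 genes named by rule that passed lost their call, among them Saa1 (adjusted p = 0.0504, limma), Ugt2b1 (0.108), Mup2 (0.191), Cyp4a14 (0.0805), Sqle (0.0963) and Plg (0.119). Another 3 arrays stood apart within their groups. Car3, an abundant carbonic anhydrase, was at 7.07 on XX estradiol replicate 1 and at 8.90 on XY- estradiol replicate 2, and at 11.99 or more on the other estradiol arrays of both genotypes. XY- blank replicate 1 had Lcn2 at 11.84 and S100a8 at 10.66, where no other blank array exceeded 8.43 and 7.17. The 7 probes for 6 hepatocyte genes, among them albumin, gave none that passed the test in limma, with 1 at an unadjusted p under 0.05, and their summed level ran from 16.61 to 16.94 with estradiol and from 16.67 to 16.85 with blank.

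In all, 418 probes differed between estradiol and blank at a Benjamini-Hochberg adjusted p under 0.05 in limma, which is 3.69% of those tested. limma fits a linear model to each probe and shares information on the spread between probes. The difference is the mean of the XX and the XY- difference, in log2 units. Of these probes 225 were higher, 1.99% of all tested, and 193 were lower, 1.71%, and 87 differed by at least 2-fold, 56 of them higher. The median over all 11317 probes was -0.02. Centring each array on its median in place of quantile normalisation called 771 probes, of which 8.04% were higher in place of 53.8%, with a median over all probes of -0.25. The sign was the same in XX and in XY- for 414 of the 418 probes. The probes were called on the mean of both differences, which favours equal signs, so this count is no separate test of either genotype. Without XX estradiol replicate 1 and XY- estradiol replicate 2 the count was 131, of which 126 were among the 418. Leaving out XY- blank replicate 1 as well gave 217, of which 179 were shared. Leaving out XY- estradiol replicate 2 alone gave 223 and XX estradiol replicate 1 alone 244. When XY- estradiol replicate 5 was included the count was 292, and a fit on the 4 groups alone called 87. With slide as a fixed block it was 793 and as a random block 688. Of the arrays compared, 5 estradiol and 6 blank arrays sat on slides that held no array of the other treatment. Weighting arrays by their quality called 262, of which 64.1% were higher. The plot of single genes gives the values of 10 genes on each array.

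**Figure D1:**
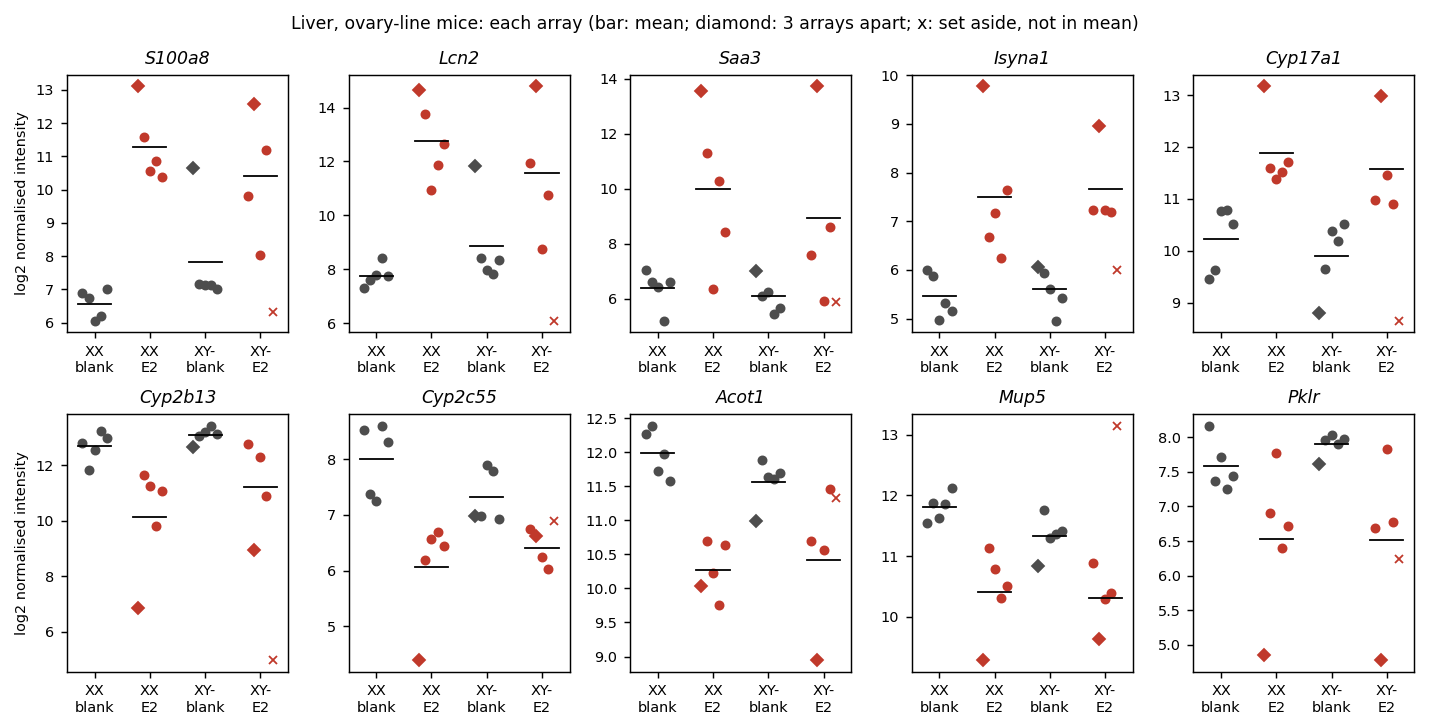
Log2 normalised intensity of 10 genes on each of the 20 ovary-line liver arrays, by genotype and treatment, with the mean of each group as a bar. Diamonds mark XX estradiol replicate 1, XY- estradiol replicate 2 and XY- blank replicate 1, and the cross marks XY- estradiol replicate 5, which is not in the mean. Apart from the cross, the estradiol arrays of Isyna1 and Cyp17a1 lie above all blank arrays and those of Cyp2c55 below them, and the other genes overlap.

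Neutrophil genes rose together. All 8 tested probes of the neutrophil list passed the test and all were higher, with a median difference of 1.82 against -0.02 over all probes. This count is partly set by the filter, because several of these probes were detected mainly on ovary-line estradiol arrays. With the stricter filter only 1 of the 8 remained among the tested probes. In the testis line none of the 8 passed in limma, where the median was 0.17. S100a8, a calcium-binding protein that is abundant in neutrophils, ranged over the blank arrays from 6.06 through a median of 7.0 to 10.66, and over the estradiol arrays from 8.02 through 10.87 to 13.11. The estradiol arrays were mostly high and the groups overlapped through XY- blank replicate 1 alone. The difference between 9 and 10 arrays was 3.65 ± 0.40 (SE), or 12.6-fold, with an adjusted p of 1.11e-08 in limma. This SE and those below rest on the spread within all 12 liver groups and not on the compared arrays alone. S100a9, the partner of S100a8, was detected on 7 of 9 estradiol and 2 of 10 blank arrays. Its fitted difference of 2.37 ± 0.35 is against background on most blank arrays.

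Granule proteins were also higher. Prtn3, which encodes proteinase 3 of the azurophil granule, ranged from 4.54 through 4.94 to 7.25 with blank and from 6.33 through 8.90 to 9.30 with estradiol. It was detected on all 9 estradiol arrays and on 1 of 10 blank arrays, so that its fitted difference of 3.28 ± 0.37 (adjusted p = 1.89e-08, limma) is mostly against background, and without background correction it was 1.69. Ltf, the iron-binding lactoferrin of specific granules, ranged from 4.44 through 4.77 to 8.05 with blank and from 5.23 through 7.76 to 10.19 with estradiol, and it was detected on 8 of 9 estradiol and 1 of 10 blank arrays. Its fitted difference of 2.79 ± 0.32 depends on the background in the same way. The highest blank value of both genes belonged to XY- blank replicate 1. Ngp, Retnlg and Mpo (neutrophilic granule protein, a resistin-like protein and myeloperoxidase) were not well above background on any blank array. Against the lowest signal detected on those arrays they were at least 1.82-fold, 2.12-fold and 1.43-fold higher with estradiol. All 3 passed the test (adjusted p = 1.02e-06, 5.30e-06 and 0.000215, limma). Elane and Camp were higher by 0.98 and 0.79. With the 2 arrays low in Car3 left out, 6 of the 8 probes passed, with a median of 1.27, and with XY- blank replicate 1 left out too, 7 passed with a median of 1.32. In RNA of the whole organ, more neutrophils and more of this RNA per cell cannot be told apart.

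The promoters of 4 of these rising genes are shown because they hold the same short motif, a CCAAT/enhancer-binding protein (C/EBP) match. C/EBP proteins drive both acute-phase genes in hepatocytes and granule genes in maturing neutrophils. The sequences are the 250 bases before the RefSeq start of each gene in GRCm38.p6, written 5′ to 3′ on the strand of the gene, with the motif TTGCNNAA, read on either strand, in capitals. Lcn2 lies on the minus strand at chr2:32387740-32387989, Saa3 on the minus strand at chr7:46715677-46715926, Ltf on the plus strand at chr9:111019042-111019291 and Ngp on the plus strand at chr9:110419558-110419807.
Lcn2: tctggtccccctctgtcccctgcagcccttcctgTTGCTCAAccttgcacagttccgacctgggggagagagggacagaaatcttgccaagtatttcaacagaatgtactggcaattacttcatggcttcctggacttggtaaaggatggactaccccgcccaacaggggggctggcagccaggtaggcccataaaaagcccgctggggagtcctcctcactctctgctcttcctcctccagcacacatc
Saa3: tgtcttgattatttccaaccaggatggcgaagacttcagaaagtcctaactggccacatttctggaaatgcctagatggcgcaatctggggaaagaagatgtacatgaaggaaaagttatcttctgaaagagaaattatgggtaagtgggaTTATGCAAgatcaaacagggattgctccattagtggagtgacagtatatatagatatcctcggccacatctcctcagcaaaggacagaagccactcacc
Ltf: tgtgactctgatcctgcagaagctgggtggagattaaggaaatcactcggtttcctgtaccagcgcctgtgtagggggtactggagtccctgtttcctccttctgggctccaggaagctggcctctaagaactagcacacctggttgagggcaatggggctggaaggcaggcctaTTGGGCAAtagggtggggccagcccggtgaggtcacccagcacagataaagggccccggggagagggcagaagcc
Ngp: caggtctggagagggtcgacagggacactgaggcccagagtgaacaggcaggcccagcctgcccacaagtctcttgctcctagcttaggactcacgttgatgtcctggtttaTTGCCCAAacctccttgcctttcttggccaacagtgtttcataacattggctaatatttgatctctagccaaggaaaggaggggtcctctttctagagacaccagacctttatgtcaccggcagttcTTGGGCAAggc
Among the 12 genes with the largest rise, all of which had a window, 6 held this motif, as did 9.56% of all 32851 windows and 3 of the 8 windows found for the 12 genes with the largest fall. A nuclear factor kappa B match was in 3 of the 12 rising genes, Chil1, Cxcl1 and Crybb3, and in 7.25% of all windows. No window of these rising or falling genes held the full estrogen response element GGTCANNNTGACC, which is in 0.0639% of all windows. The motifs are descriptions of these letters and were not tested as sites.

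Acute-phase genes formed the next group. Of 53 probes on that list, 19 passed the test, all higher, for 18 genes, and the median was 0.50 against -0.02 over all probes. Lcn2 encodes lipocalin 2, an iron-sequestering protein that hepatocytes secrete in the acute phase and that neutrophils also carry. It ranged from 7.30 through 7.89 to 11.84 with blank and from 8.74 through 11.95 to 14.79 with estradiol. Only XY- blank replicate 1 among the blanks reached the estradiol range, and the lowest estradiol value was that of XY- replicate 3. The difference was 3.85 ± 0.73, or 14.4-fold (adjusted p = 0.000727, limma).

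The serum amyloid genes varied more. Saa3 ranged from 5.20 through 6.33 to 7.05 with blank and from 5.90 through 8.60 to 13.73 with estradiol, so that some estradiol arrays were as low as blank and others far higher. Its difference was 3.24 ± 0.66 (adjusted p = 0.00182, limma) and fell to 2.0, with an adjusted p of 0.0582, without the 2 arrays low in Car3. Saa1 differed by 2.12 ± 0.57 and lost its call without XY- estradiol replicate 2 (1.44, adjusted p = 0.163) or XX estradiol replicate 1 (1.79, adjusted p = 0.0806). Cxcl1, a chemokine that attracts neutrophils, rose by 2.12 ± 0.44, Socs3, an inhibitor of cytokine signalling, by 1.46 ± 0.34, and Apcs, serum amyloid P, by 1.40 ± 0.31. None of these 3 passed in limma without the 2 arrays low in Car3, where they differed by 1.43, 1.19 and 0.79 with adjusted p values of 0.0624, 0.0856 and 0.11. Chil1, a chitinase-like protein of macrophages and neutrophils, was detected on 8 of 9 estradiol arrays and 1 of 10 blank arrays and had a fitted difference of 2.83 ± 0.53, mostly against background, which was 1.47 without those 2 arrays. Haptoglobin (Hp) was higher by 0.83 and the lipopolysaccharide-binding protein Lbp by 1.30. Across the list 3 of 53 probes passed without the 2 arrays low in Car3 and 7 without all 3 arrays apart, with medians of 0.34 and 0.32. The count was 10 without XY- estradiol replicate 2 alone and 9 with median centring. With median centring the list median was 0.31, where all probes had a median of -0.25.

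**Figure D2:**
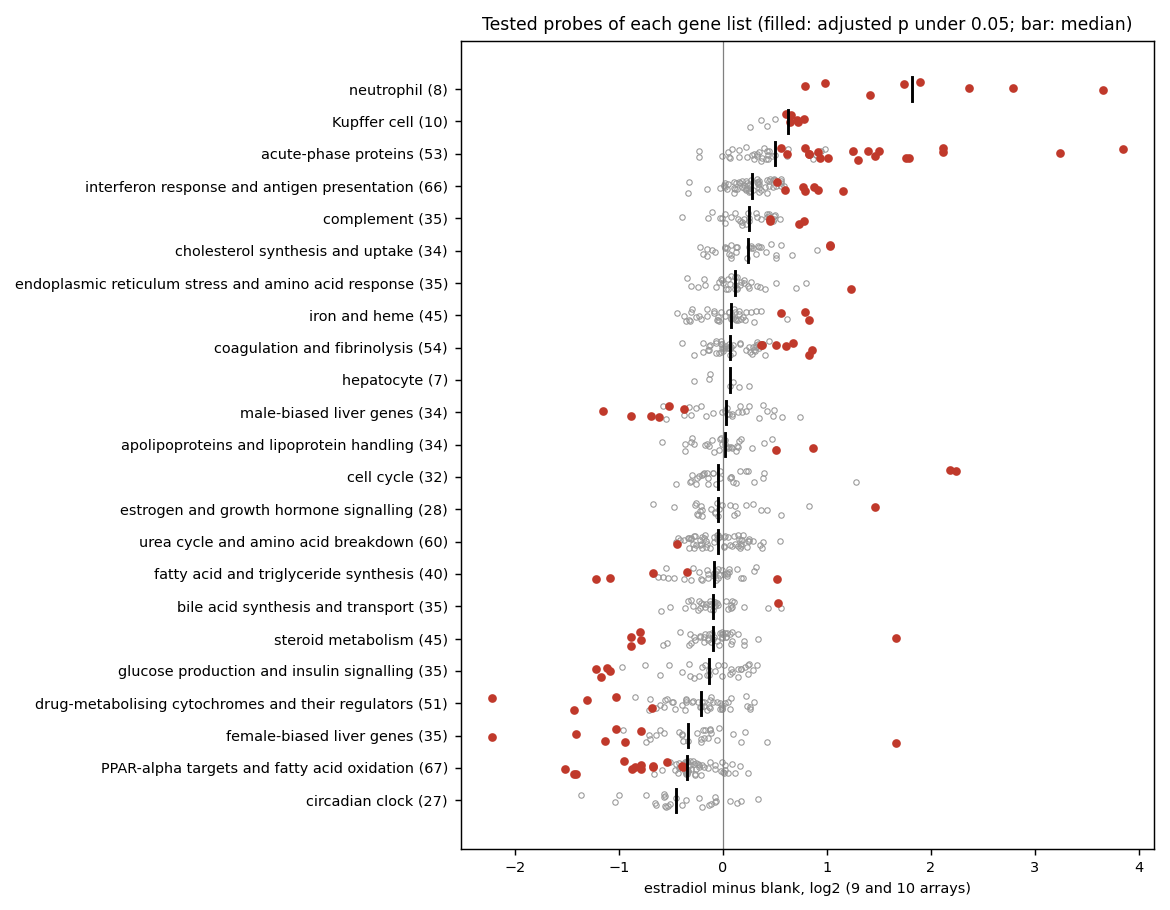
Estradiol minus blank in log2 units for every tested probe of the 20 pathway lists and the neutrophil, Kupffer cell and hepatocyte markers, with the number of probes in brackets. Filled points passed at an adjusted p under 0.05 and bars are list medians. All 8 neutrophil probes lie right of 0, and the 13 filled points among PPAR-alpha targets lie left of it.

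Macrophage and interferon genes rose less. Of the 10 Kupffer cell probes 6 passed, all higher, with a median of 0.63. The median was 1.07 in XX, where 6 passed, and 0.11 in XY-, where none passed in limma and none had an unadjusted p under 0.05. The difference of the list between the genotypes was not tested, and probe by probe 1 of the 10 differed between them. Vsig4, a complement receptor of Kupffer cells, ranged from 10.02 through 10.55 to 11.26 with blank and from 10.56 through 11.57 to 11.99 with estradiol, a difference of 0.72 ± 0.17. The macrophage growth factor receptor Csf1r differed by 0.71 ± 0.17. Median centring left none of the 10 called, with a median of 0.39 where all probes had a median of -0.25. Without XY- estradiol replicate 4, 2 of them passed. The complement list had 4 of 35 probes higher and none lower, among them C1qb at 0.78 ± 0.15 and C1qc at 0.73 ± 0.17, subunits of the C1q recognition protein that macrophages make. Median centring left none of the 35 called, with a median of 0.003 against the same -0.25. Interferon and antigen presentation probes had medians of 0.50 in XX, with 14 of 66 higher, and 0.02 in XY-, with none in limma and 5 at an unadjusted p under 0.05, and none of the 66 differed between the genotypes. In both genotypes fitted together 7 of the 66 rose, including the antiviral sensor Oas1g at 0.92 ± 0.16 and the interferon-induced GTPase Ifi47 at 1.16 ± 0.22. That count was 3 without XY- blank replicate 4 and 12 without XY- blank replicate 1.

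The levels of the marker sums are set out array by array in the plot of marker sums. The neutrophil sum was between 7.84 and 11.14 with blank, with a median of 8.28, and between 8.82 and 13.49 with estradiol, with a median of 11.34. The lowest estradiol array, XY- replicate 3 at 8.82, still lay above every blank array other than XY- blank replicate 1. In the testis line the neutrophil sum was 7.65 to 8.03 with blank and 7.85 to 9.49 with estradiol. The Kupffer cell sum was 11.56 to 12.73 with blank and 11.73 to 12.90 with estradiol in the ovary line. The 5 XX estradiol arrays were at 12.54 or more, and the 4 XY- estradiol arrays were at 12.23, 11.77, 11.73 and 12.60. All but 1 blank array were at 11.97 or less, the exception being XY- blank replicate 1 at 12.73. The XY- estradiol arrays at 12.23 and 12.60 lay above every blank array but that one, and the others lay among the blanks. In the testis line the Kupffer cell sum was 10.74 to 11.22 with blank and 11.36 to 12.09 with estradiol, without overlap.

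**Figure D3:**
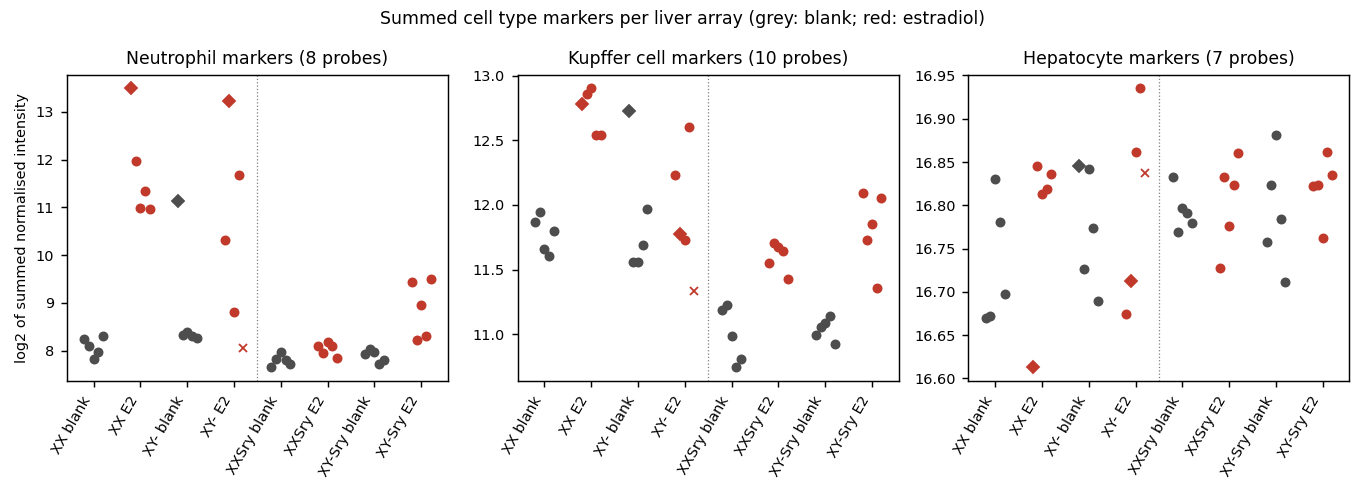
Log2 of the summed normalised intensity of neutrophil, Kupffer cell and hepatocyte marker probes on each liver array of the ovary line (left of the dotted line) and the testis line, with blank in grey and estradiol in red. Diamonds and the cross mark the same arrays as in the plot of single genes. The neutrophil sum exceeds 10 on 8 of the 9 ovary-line estradiol arrays and on XY- blank replicate 1, and on no testis-line array.

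Few probes of the other marker lists passed the test. T and NK cell (2 probes), B and plasma cell (1), sinusoidal endothelium (6), cholangiocyte (1), pancreas (1) and adipocyte (2) markers had no called probe in limma and none at an unadjusted p under 0.05. Stellate cell and fibroblast markers (7) had no called probe in limma either, with 2 at an unadjusted p under 0.05. The erythroid list had a median of -0.53 and 1 of 4 probes lower, Alas2, the first enzyme of heme synthesis in red cell precursors. Alas2 was at 7.87 to 9.01 with blank and at 6.94 to 7.99 with estradiol, a difference of -0.95 ± 0.16 (adjusted p = 9.53e-05, limma). With XY- estradiol replicate 5 included it was -0.65 with an adjusted p of 0.105. The globin probe Hba-a1 differed by -0.73 with an adjusted p of 0.124.

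Among genes of fatty acid oxidation the called changes were falls. On the list of PPAR-alpha targets 13 of 67 probes passed, all lower, for 10 genes, and the median was -0.34 against -0.02 over all probes. Acot1, a cytosolic enzyme that frees fatty acids from coenzyme A, ranged from 10.99 through 11.71 to 12.39 with blank and from 8.95 through 10.56 to 11.46 with estradiol. Overlap was confined to the lower end of the blank arrays and the upper end of the estradiol arrays. The difference was -1.43 ± 0.22 (adjusted p = 2.63e-05, limma). Mgll, which releases the last fatty acid from triglycerides, fell by 0.95 on the log2 scale with an SE of 0.18, and all 3 of its probes passed.

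Other members of that list were less firm. Acot3 differed by -1.41 ± 0.39 and lost its call without XY- estradiol replicate 2 (-1.09, adjusted p = 0.141) or XX estradiol replicate 1 (-1.24, adjusted p = 0.0796). Ehhadh and Cyp4a14, of peroxisomal and microsomal fatty acid oxidation, were both lower by 0.79. Without XY- estradiol replicate 2 the list had 5 called probes, and without the 2 arrays low in Car3 it also had 5, with a median of -0.21. Median centring called 26 probes of the list with a median of -0.60, where all probes had a median of -0.25.

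Carbohydrate genes that fell were few. Pklr, liver pyruvate kinase, ranged from 7.25 through 7.81 to 8.17 with blank and from 4.78 through 6.72 to 7.84 with estradiol. Its lowest values were those of XX replicate 1 and XY- replicate 2. The difference of -1.22 ± 0.29 (adjusted p = 0.00802, limma) was -0.93 with an adjusted p of 0.0638 without XY- estradiol replicate 2, and within slide 3 it was 0.23. The glucose transporter Slc2a2 differed by -1.17 ± 0.31, and by -0.83 (adjusted p = 0.122) without XY- estradiol replicate 2 and -0.82 (adjusted p = 0.0569) without XX estradiol replicate 1. Of 35 glucose and insulin probes 4 passed, all lower and all for these 2 genes, and none passed without XY- estradiol replicate 2. Of 40 lipogenesis probes 4 were lower and 1 higher, and likewise none passed without that array.

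Cytochromes P450 and sex-biased genes also changed. Cyp2b13, a female-predominant cytochrome, ranged from 11.84 through 13.04 to 13.44 with blank and from 6.87 through 11.06 to 12.76 with estradiol. Most estradiol arrays were below all blanks, and the range with estradiol was far wider. The difference was -2.22 ± 0.45, or 4.65-fold lower (adjusted p = 0.00158, limma). It was -1.43 (adjusted p = 0.0412) without the 2 arrays low in Car3 and -2.84 with XY- estradiol replicate 5 included.

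Cyp2c55 was separated between the groups. It was at 6.92 to 8.61 on the blank arrays and at 4.39 to 6.75 on the estradiol arrays, a difference of -1.44 ± 0.23 (adjusted p = 7.92e-05, limma). Complete separation was rare: in 6 probes (0.053% of those tested) all 9 estradiol arrays lay above all 10 blank arrays and in 2 probes (0.0177%) below. The 6 were Isyna1, Rasl11b, Crybb3, Gja4, Cyp17a1 and Prelp, and the 2 were Cyp2c55 and Trmt2b, and all 8 also passed the test. Rasl11b, Gja4, Trmt2b and Prelp were named here because of this separation. Trmt2b was detected on 1 of 9 estradiol and 9 of 10 blank arrays, so its estradiol levels lie mostly at background. With XY- estradiol replicate 5 included it lost its call (adjusted p = 0.0506, limma). Of 51 probes for drug-metabolising cytochromes and their regulators 5 passed, all lower, the others being Cyp2b23, Cyp2c67 and Cyp2d13.

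Cyp2b13 and Cyp2b23 are close relatives and their promoters both held the nuclear receptor half-site AGGTCA, found in 14% of all windows. By gene, 4 of the 8 with a window among the largest falls held it, and 2 of the 12 with the largest rise. The promoter of Cyp2b13, with the half-site in capitals, lies on the plus strand at chr7:26061245-26061494 in GRCm38.p6.
Cyp2b13: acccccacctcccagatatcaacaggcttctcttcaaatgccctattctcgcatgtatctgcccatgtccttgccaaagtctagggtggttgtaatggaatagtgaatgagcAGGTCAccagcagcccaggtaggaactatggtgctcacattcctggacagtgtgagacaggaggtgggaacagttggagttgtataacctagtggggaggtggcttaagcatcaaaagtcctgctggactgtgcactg

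Genes outside the immune lists rose as well. Isyna1, inositol-3-phosphate synthase, the first enzyme of inositol synthesis, was at 4.96 through 5.52 to 6.07 with blank and at 6.24 through 7.23 to 9.77 with estradiol. Every estradiol array in the comparison lay above every blank array, and XY- estradiol replicate 5, outside the comparison, was at 5.99. The difference was 2.04 ± 0.28 (adjusted p = 2.02e-06, limma), and over the omission of each array in turn it stayed between 1.76 and 2.20. Cyp17a1, the steroid 17-hydroxylase and lyase, ranged from 8.79 through 10.27 to 10.79 with blank and from 10.89 through 11.52 to 13.17 with estradiol, a difference of 1.66 ± 0.34 (adjusted p = 0.0018, limma). Without all 3 arrays apart it was 1.13 with an adjusted p of 0.0731. Gadd45g, a stress-induced growth arrest gene, rose by 2.24 ± 0.48 and accounts for the 2 called probes of 32 on the cell cycle list, both higher. Without the 2 arrays low in Car3 it differed by 1.55 with an adjusted p of 0.081. Crybb3, a crystallin, was detected on 8 of 9 estradiol arrays and 1 of 10 blank arrays, with a fitted difference of 1.96 ± 0.34 that is mostly against background. Lpl, lipoprotein lipase, rose by 1.03 ± 0.21.

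On the male-biased list 6 of 34 probes were lower and none higher, with a median of 0.03. Of the 6, 4 were major urinary protein genes, pheromone carriers that male mice secrete in large amounts: Mup4, Mup3 and 2 probes of Mup2. The copies of this family are nearly identical, and their probes may not tell them apart. Mup4 fell from 11.12 to 12.10 across the blank arrays to 9.11 to 11.53 with estradiol, a difference of -1.16 ± 0.20. Mup5, not on the list, differed by -1.22 ± 0.18 (adjusted p = 5.31e-06, limma). With XY- estradiol replicate 5 included, Mup4 differed by -0.82 with an adjusted p of 0.0842, and 1 probe of the list was higher and 1 lower.

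On the female-biased list 6 of 35 probes were lower and 1, Cyp17a1, was higher, with a median of -0.33. Vldlr, a receptor for triglyceride-rich lipoproteins, differed by -1.13 ± 0.22. Hao2, a peroxisomal hydroxyacid oxidase, was not well above background on any estradiol array and was at least 1.14-fold lower there. Omitting XY- estradiol replicate 2 left 3 called probes on the male-biased and 4 on the female-biased list.

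Clotting and steroid genes also held called probes. Of 54 coagulation probes 7 were higher, for F11, Cpb2, F9 and Plg, and none was lower, with a median of 0.07. Coagulation factor XI (F11) ranged from 9.68 through 10.61 to 11.10 with blank and from 10.86 through 11.21 to 12.05 with estradiol, a difference of 0.83 ± 0.14 (adjusted p = 9.53e-05, limma). Of the 54 probes 3 passed without XY- estradiol replicate 2. Under median centring none did, with a list median of -0.16 where all probes had a median of -0.25. Of 45 steroid metabolism probes 4 were lower and 1 higher, and the lower ones included the glucuronosyltransferases Ugt2b5 at -0.80 ± 0.18 and Ugt2b1 at -0.88 ± 0.22. Ugt2b1 lost its call without XY- estradiol replicate 2 (-0.66, adjusted p = 0.0934) and without XX estradiol replicate 1 (-0.66, adjusted p = 0.0524). Without the first of these 2 arrays, 2 steroid probes passed.

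The receptors themselves did not pass the test. Esr1 ranged from 5.91 through 6.40 to 7.04 with blank and from 6.10 through 6.80 to 7.32 with estradiol, a difference of 0.29 ± 0.18 with an adjusted p of 0.457 in limma. The growth hormone receptor Ghr differed by -0.22 ± 0.15 and the prolactin receptor Prlr by -0.11 ± 0.21. Pgr and Greb1, targets of the estrogen receptor in other tissues, were too dim to be tested. Of the 28 probes for estrogen and growth hormone signalling 1 passed, for Socs3.

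The XX and XY- livers were then taken apart. In XX alone 336 probes passed (2.97% of those tested), 216 of them higher, and in XY-, with 4 estradiol arrays, 17 passed (0.15%), 9 of them higher. S100a8 differed by 4.72 ± 0.54 in XX and by 2.58 ± 0.58 in XY-, and Lcn2 by 5.01 ± 1.0 and 2.69 ± 1.06. The difference between genotypes had adjusted p values of 0.622 and 0.942. Isyna1 differed by 2.03 in XX and 2.05 in XY-. Leaving out XX estradiol replicate 1 left 129 called probes in XX, and leaving out XY- estradiol replicate 2 left none in XY- in limma, with 507 at an unadjusted p under 0.05. The XY- count was 41 without XY- estradiol replicate 3, 32 without XY- blank replicate 1, 30 without XY- estradiol replicate 1, 9 without XY- blank replicate 4 and 10 without XY- blank replicate 5.

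**Figure D4:**
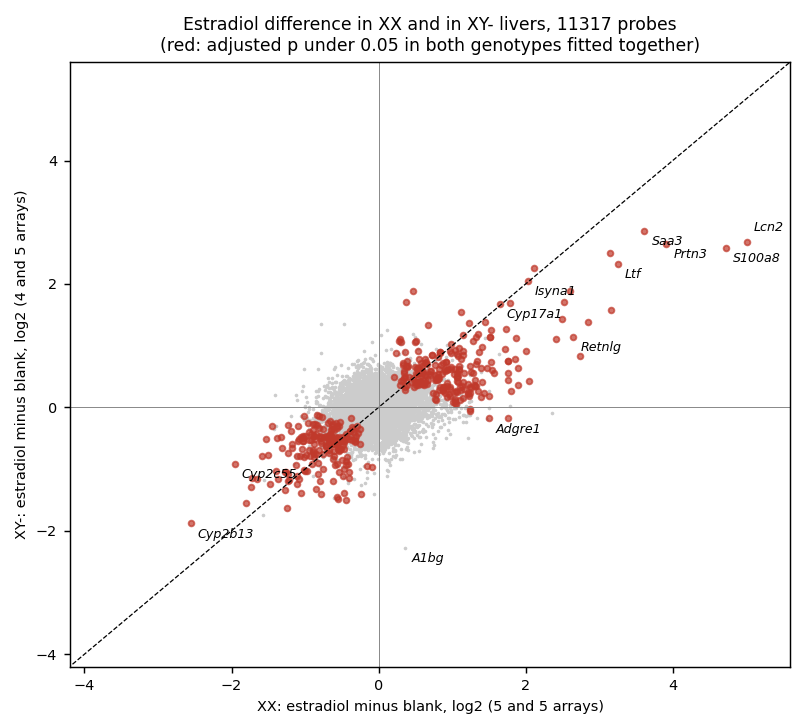
Estradiol minus blank in log2 units in XX livers (horizontal axis) and in XY- livers (vertical axis) for the 11317 tested probes, with the 418 called in both genotypes fitted together in red and equal differences on the dashed line. S100a8 lies at 4.72 and 2.58, Isyna1 at 2.03 and 2.05, and Adgre1 at 1.5 and -0.18.

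A single probe, 0.00884% of those tested, differed between the genotypes. It read Adgre1, listed as Emr1, a surface receptor that marks macrophages. In XX its levels were 4.45, 5.06, 4.49, 4.78 and 5.64 with blank and 6.84, 6.85, 6.14, 6.08 and 5.99 with estradiol, without overlap. In XY- they were 5.00, 5.41, 5.02, 5.86 and 5.74 with blank and 5.11, 4.99, 4.54 and 6.28 with estradiol, with overlap. The probe was detected on all 5 XX estradiol arrays, on 1 of 5 XX blank, 1 of 4 XY- estradiol and 2 of 5 XY- blank arrays, so that most levels lie near background. The fitted XX minus XY- difference was 1.67 with an adjusted p of 0.0497 in limma. Over single omissions of an array the gap lay between 1.44, without XY- estradiol replicate 3 (adjusted p = 0.573, limma), and 2.02, without XY- estradiol replicate 4 (adjusted p = 0.000239). The call also went under other settings, among them median centring (adjusted p = 0.308). The other 2 tested Adgre1 probes passed neither for the XX minus XY- difference nor for the estradiol difference in limma.

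Estradiol was given in the same way to the testis line, whose blank arrays are others. Between the lines 35 probes differed in their response, 0.309% of those tested, and 22 had the lower value in the ovary line. When XY- estradiol replicate 5 was included 9 remained called. A1bg, alpha-1-B glycoprotein, had the widest gap. In the ovary line it ranged from 9.45 through 11.47 to 13.42 with blank and from 5.61 through 11.51 to 12.97 with estradiol. The difference, the mean of both genotypes, was -0.96 ± 0.43 and did not pass (adjusted p = 0.242, limma). In XX the arrays spanned 9.45 to 13.42 with blank and 11.31 to 12.97 with estradiol. In XY- they spanned 10.39 to 12.00 and 5.61 to 11.82, with the lowest value on XY- estradiol replicate 2. The XX minus XY- difference of A1bg did not pass in limma. In the testis line A1bg differed by 3.42 ± 0.42. The difference between the lines was -4.38 ± 0.60 (adjusted p = 1.65e-05, limma), and -3.82 without XY- estradiol replicate 2.

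Gaps of the same sign were found for Dct and Sult3a1, a tautomerase and a sulfotransferase. Dct differed by -0.12 in the ovary line and 2.62 in the testis line, and Sult3a1 by -0.18 and 1.90. The adjusted p values between the lines were 5.93e-05 and 4.09e-05 in limma. Of the ovary-line arrays compared, XY- estradiol replicate 2 was lowest for both, at 5.75 and 5.43. Without it the gaps between the lines were -2.38 and -1.83. The deiodinase Dio1 had 0.42 and 1.61. Mup4 and Mup5 differed by -1.16 and -1.22 in the ovary line and by 0.68 and 0.37 in the testis line, and neither testis-line value passed. With XY- estradiol replicate 5 included, the adjusted p between the lines was 0.0795 for both.

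On the other side, 6 of the 8 neutrophil probes had a larger estradiol difference in the ovary line. S100a8 differed by 3.65 there and by 1.33 ± 0.38 in the testis line, a gap of 2.32 ± 0.55 (adjusted p = 0.0334, limma). With XY- estradiol replicate 5 included none of the 8 passed in limma (lowest adjusted p = 0.0659, all 8 at an unadjusted p under 0.05), and with only the groups of the contrast 1 did. Most of these genes were near background on blank arrays, Ltf and Prtn3 being detected on none of the testis-line blank arrays. Lpl had 1.03 and -0.34, Mustn1 1.33 and 0.29, and Acot1 -1.43 and -0.01. Of the 11317 tested probes, 418 were called in the ovary line and 213 in the testis line. Called in both lines were 61 probes, all with the same sign, and 357 were called in the ovary line only. Cyp17a1 rose by 1.66 and 3.36, Vldlr fell by 1.13 and 1.11 on the log2 scale, and Alas2 by 0.95 and 0.99.

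**Figure D5:**
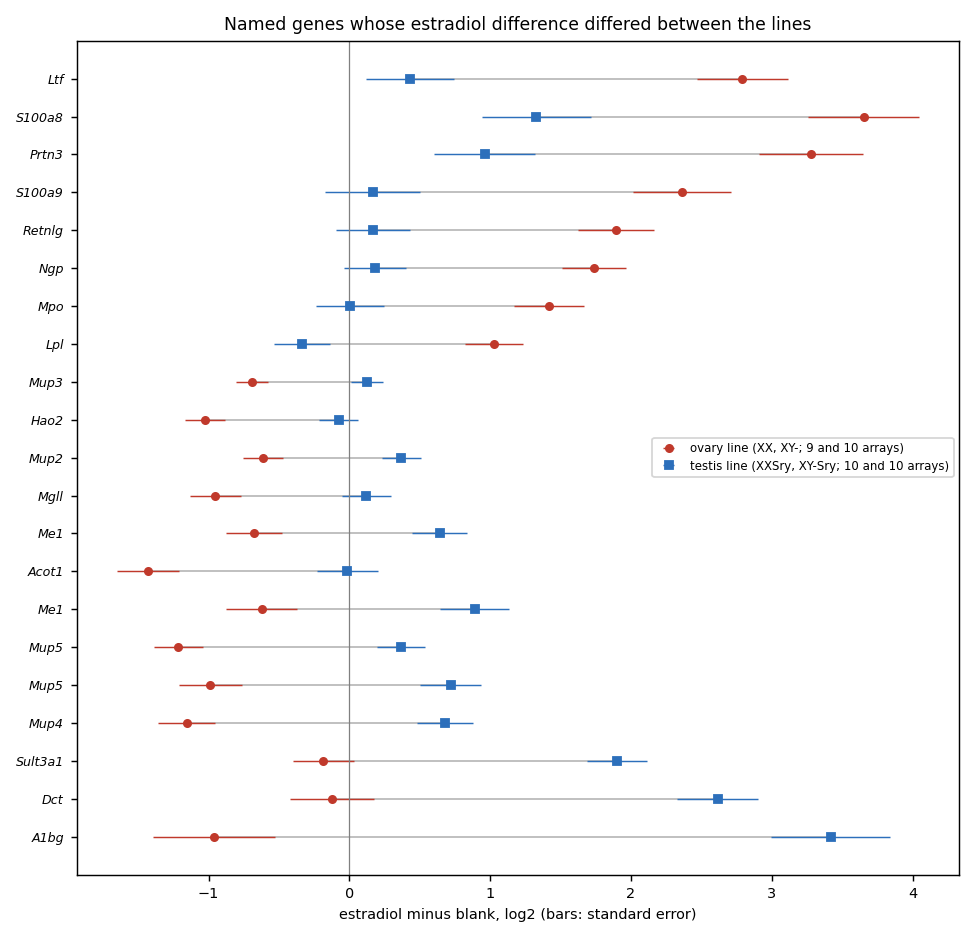
Estradiol minus blank in log2 units, with standard errors, in the ovary line (red circles) and the testis line (blue squares) for the probes of genes under the naming rule, among the 35 whose estradiol difference differed between the lines at an adjusted p under 0.05. A1bg, Dct and Sult3a1 lie high in the testis line and near or below 0 in the ovary line, and the neutrophil genes lie high in the ovary line.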

How the data were processed

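Total RNA of each liver was hybridised to an Illumina BeadChip. The deposited table holds each probe's intensity and its detection p-value per array, and the submitters' processing notes name lumi. The deposited intensities are on a linear scale and their normalisation by the authors is not given in the sources used here. A further 60 columns of bead standard errors and the adipose arrays were not used. With limma 3.58.1 in R 4.3.3, background was corrected by normexp using the detection p-values (offset 16), followed by quantile normalisation and log2. Probes detected (p under 0.01) on 5 or more of 60 liver arrays were kept. All 12 liver groups entered 1 linear model of 59 arrays, testosterone (5 mM capsule) included, and the estradiol contrast averaged XX and XY-. Benjamini-Hochberg adjustment ran over all tested probes, with a threshold of 0.05. Alternatives changed the normalisation, background, offset, filter, slide block, array weights, groups fitted and arrays left out. The procedure was tested on simulated data. Named genes were the 12 largest called changes in each direction, receptors, the 5 probes of smallest adjusted p in each interaction and up to 6 called members of each of 20 pathway and 11 marker lists. Elane, Camp, Lbp, Ehhadh, Dio1, Mustn1 and the genes named for complete separation fell outside this rule and were chosen after their values were seen, and some genes are not reported here. The members and lists were chosen with earlier results of these data known. Promoter windows came from RefSeq (GRCm38.p6), and 97% of tested probes had a RefSeq name.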

Additional observations from a re-analysis of the deposited data

Results flagged for a closer look

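Within each group of 4 or 5 arrays, the gap between the outermost array and its neighbour was divided by the range of the group. Of 464 groups examined, 51 had a ratio above the critical value of Dixon's test, where chance flags about 1 in 20 groups. The array XX estradiol replicate 1 was outermost for 21 genes, with ratios of Chil1 (0.778), Ltf (0.844), Car3 (0.908), Cyp2c55 (0.778), Cyp2b23 (0.925), Mrto4 (0.791), Mup4 (0.71), Igfbp1 (0.907), Mup3 (0.773), Ugt2b1 (0.731), Vldlr (0.867), Cyp17a1 (0.816), Slco1a4 (0.935), Acot4 (0.821), C4b (0.735), Cdkn1a (0.75), H2-Ab1 (0.75), Nudt7 (0.784), Akr1c19 (0.887), Tk1 (0.757) and Cps1 (0.932).

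The array XY- estradiol replicate 2 was outermost for 8 genes, with ratios of Chil1 (0.873), Isyna1 (0.975), Car3 (0.967), Vldlr (0.903), F9 (0.845), Cyp2c67 (0.873), Slc2a2 (0.834) and Creld2 (0.843). The array XY- blank replicate 1 was outermost for 8 genes, with ratios of Lcn2 (0.847), S100a8 (0.952), Ltf (0.835), S100a9 (0.808), Lpl (0.859), C1qb (0.721), Angptl4 (0.725) and Ngp (0.801).

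The other ratios each belong to an array with 3 or fewer such genes. On XX estradiol replicate 4 it was Prtn3 (0.852). On XX blank replicate 5 it was Gadd45g (0.745), Nrep (0.774) and Ghr (0.879). On XY- blank replicate 5 it was Mgll (0.771). On XX estradiol replicate 2 it was Ugt2b5 (0.72). On XY- estradiol replicate 3 it was Isg15 (0.867) and Hp (0.846). On XX blank replicate 3 it was Chac1 (0.712). On XX blank replicate 2 it was Cps1 (0.723). On XY- blank replicate 3 it was Cps1 (0.771). On XX blank replicate 1 it was Retnlg (0.75). On XY- blank replicate 4 it was Marco (0.85). On XX blank replicate 4 it was Cela1 (0.746).

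Among the probes of smallest adjusted p in each interaction, the estradiol difference itself differed between groups for 6 genes in limma. Other named genes also differed between the lines, S100a8 among them, as given above. Adgre1 had an XX minus XY- gap of 1.673. The ovary minus testis line gap was -4.379 for A1bg, -2.736 for Dct, -2.084 for Sult3a1, -1.836 for Mup4 and -1.583 for Mup5. In limma fits that left out 1 array at a time, each of these gaps between the lines stayed called. The highest adjusted p was 0.000247, for Mup5 without XY- estradiol replicate 2. Mup4 and Mup5 lost their calls when XY- estradiol replicate 5 was included (adjusted p = 0.0795 for both). The Adgre1 call was lost in some single omissions, as given above. The part that RNA quality plays in these values was not tested.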

How the results depend on the processing

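Of 81 named genes that passed the test, 21 passed in the same direction under every alternative with a test, among them S100a8, Lcn2, Isyna1, Cyp2c55, Cyp2b13, Acot1 and Mup5, and all 21 had that sign within both slides that hold each treatment. The count of called probes in both genotypes, 418, was 771 with median centring, 793 with slide as a fixed block, 688 with slide as a random block, 87 with the 4 groups alone, 262 with array weights, and 131 and 217 without the 2 and the 3 arrays that stood apart, which were chosen after seeing the data. Leaving out 1 array gave 223 to 594. In the same order of settings XX gave 207, 703, 628 and 69, then 170 and 208 without the arrays, and single omissions gave 129 to 375. XY- gave 3 with the set-aside array, 42 and 34 with slide as a fixed and random block, 0 with its groups alone (651 at an unadjusted p under 0.05 in limma) and 3 without the 2 arrays, and single omissions gave 0 to 41. The XX minus XY- count of 1 was 2 with the set-aside array and 4 with slide as a fixed block. It was 0 in limma with median centring (278 at an unadjusted p under 0.05), without background correction (687), with an offset of 1 (667), without a filter (1337), with a stricter filter (575), with the groups alone (467), without an XY-Sry testosterone array whose profile did not match its label (673) and without the 2 (572) and 3 (534) arrays. Single omissions gave 0 to 2. The count between lines, 35, was 9 with the set-aside array, 23 with median centring, 53 and 71 with slide as a fixed and random block and 19 with the groups alone, and single omissions gave 29 to 47. Within slide 3 the sign turned for Saa1 (-0.058), Pklr (0.231), Slc25a1 (0.041), Apoc2 (-0.079), Akr1c14 (0.055) and Tapbp (-0.005). The cause of these changes was not tested. No paired analysis was possible because replicate numbers were given in accession order and pair no samples. Slide blocks, which are no such pairing, are given above. The number of arrays limits the precision, and for dim probes such as Ngp, Retnlg and Mpo the signal over background limits it further.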

Other observations

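For several further groups of liver genes the share of called probes in the ovary line is set beside the 3.69% of all tested probes. It was 6.67% for iron and heme, and 5.88% each for cholesterol synthesis and uptake and for apolipoproteins. It was 2.86% each for bile acid genes and for endoplasmic reticulum stress, and 1.67% for the urea cycle and amino acids. Of 27 probes for the circadian clock none passed in limma, with 10 at an unadjusted p under 0.05 and a median difference of -0.45, against -0.02 over all probes, where 1847 of 11317 were at an unadjusted p under 0.05. Median centring, under which all probes had a median of -0.25, called 5 of them, all lower, and slide as a fixed block 4. The median was -0.22 without XX estradiol replicate 1 and XY- estradiol replicate 2. In the testis line the median was -0.55 and 2 were lower. Of 34 probes for cholesterol synthesis and uptake 2 were higher, for squalene epoxidase (Sqle) and Lpl, with a median of 0.24, and Sqle lost its call in 13 of 19 single omissions, with an adjusted p of up to 0.134. Single omissions gave 1 to 4 called probes on this list. In the testis line 12 were higher with a median of 0.59. These are values of each line, and the difference between the lists was not tested.

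Of 35 probes for endoplasmic reticulum stress and the amino acid response 1 passed, Chac1, a glutathione-degrading enzyme, which rose by 1.23. Of 45 iron and heme probes 3 were higher, for haptoglobin and ceruloplasmin (Cp). Apoc2, the activator of lipoprotein lipase, had both called probes among 34 for apolipoproteins, at 0.51 and 0.86. Of 35 bile acid probes 1 was higher, for Atp8b1, a flippase of the canalicular membrane, and of 60 urea cycle and amino acid probes 1 was lower, for Otc, ornithine transcarbamylase. Without XY- estradiol replicate 2 no probe of the stress, apolipoprotein or urea cycle list passed.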
